A study of Homo sapiens with 6 samples.

Results

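The linear ubiquitin chain assembly complex (LUBAC) and the proteins that edit its product were followed as 7 genes of the count table: the subunits RBCK1, RNF31 and SHARPIN, the enzymes OTULIN, CYLD and TNFAIP3 that trim or edit ubiquitin chains, and the kinase RIPK1, a substrate of the complex. They were found by name among 23382 gene names, with the row of the highest mean count standing for a name held on several rows. RBCK1 was selected on its counts in this same contrast, and the set was drawn up around it with the contrast in view, so the values of the 7 genes are described without a p. RNA came from UM-UC-3 (UMUC3), an established human bladder cancer cell line, and was sequenced in 3 libraries of a negative control and 3 libraries labelled si-CPSF3. CPSF3 is the endonuclease that cuts pre-mRNA ahead of polyadenylation. The labels state neither the siRNA sequence, the dose, the time after transfection nor whether the numbered libraries came from separate cultures, so p-values measure only the spread between these libraries, which may be technical.

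LUBAC joins ubiquitin molecules head to tail into linear chains at receptors such as that of tumour necrosis factor (TNF). RNF31, also called HOIP, holds the catalytic site that makes these chains, while RBCK1, also called HOIL-1L, and SHARPIN bind and stabilise it. The chains recruit the IKK kinases that turn on NF-kB and restrain cell death, and OTULIN, CYLD and TNFAIP3 counter them. In humans, loss of RBCK1 causes a muscle disease with deposits of abnormal glycogen together with immune defects.

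Total counts lay between 4145385 and 4378899 per library. CPSF3, read first as a check on the labels, had 20, 50 and 36 counts in controls 1, 2 and 3, against 56, 38 and 66 in those labelled si-CPSF3, so it was not lower there (log2 fold change 0.67, SE 0.32, edgeR adjusted p = 0.329). The target's own level thus went against the group's name, which is used here only as a label. Of the epithelial markers, KRT8 stood at 135 ± 27.8 and 142 ± 18.3 CPM, which are counts scaled to library size (SD, n = 3 per group), whereas UPK2, EPCAM and CDH1 had 0 counts in all 6 libraries. KRT18 stood at 97.3 ± 15.4 and 74.8 ± 8.98 CPM (log2 fold change -0.38, edgeR adjusted p = 0.277) and the uroplakin gene UPK1B at 5.93 ± 0.680 and 3.07 ± 0.304 CPM (-0.95, edgeR adjusted p = 0.197). Groups did not overlap for these 2 of the 4 epithelial markers tested, both lower, where 21.2% of all genes tested did not overlap (11.4% lower). With edgeR or DESeq2 0 of the 4 passed, with 2 unadjusted p under 0.05, where edgeR called 2.23% of all genes tested. PPARG, also tested, was at 0.04 (edgeR adjusted p = 0.973) with overlap. GATA3, too low to test, had 7, 6 and 6 counts in controls 1, 2 and 3, against 0, 1 and 4 in those labelled si-CPSF3. The 4 leukocyte markers with a row in the table summed to between 38.6 and 43.4 CPM in control libraries and between 28.1 and 34.4 in the others, nearly all of it CD68 and LYZ. CD68, a lysosomal protein that other cells make too, stood at 25.3 ± 3.88 and 14.1 ± 2.49 CPM (edgeR adjusted p = 0.0524), and LYZ at 15.7 ± 1.77 and 17.1 ± 1.63 (edgeR adjusted p = 0.851), so the lower sum rested on CD68. CD14 had at most 2 counts in a library, and the part of these markers in the results was not tested.

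The windows around the annotated transcription starts are shown for the subunit gene that stood highest, for its catalytic partner and for RIPK1, because these 3 share a motif, and for TNIP1, a chain reader described further on. Each spans a RefSeq start (GRCh38.p14), most of it upstream, is written 5′ to 3′ along the gene, and lies at chr20:408049-408348 on the plus strand for RBCK1, chr14:24146625-24146924 on the plus strand for RNF31, chr6:3068128-3068427 on the plus strand for RIPK1 and chr5:151080985-151081284 on the minus strand for TNIP1. Capitals mark the core of the interferon-stimulated response element (GAAA, any 2 bases, GAAA, read on either strand) in the first 3 and an NF-kB motif (GGG, any 2 bases, TTTCC, on either strand) in the fourth.
RBCK1: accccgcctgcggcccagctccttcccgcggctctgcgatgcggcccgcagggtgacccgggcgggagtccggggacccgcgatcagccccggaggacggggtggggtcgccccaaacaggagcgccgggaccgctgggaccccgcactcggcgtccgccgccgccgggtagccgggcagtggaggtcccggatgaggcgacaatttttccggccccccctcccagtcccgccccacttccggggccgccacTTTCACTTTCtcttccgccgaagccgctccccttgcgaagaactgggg
RNF31: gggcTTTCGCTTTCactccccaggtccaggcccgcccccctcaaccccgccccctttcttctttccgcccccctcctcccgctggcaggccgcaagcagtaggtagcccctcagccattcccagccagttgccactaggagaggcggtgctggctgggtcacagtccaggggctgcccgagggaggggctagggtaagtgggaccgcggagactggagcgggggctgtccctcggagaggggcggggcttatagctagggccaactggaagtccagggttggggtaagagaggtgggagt
RIPK1: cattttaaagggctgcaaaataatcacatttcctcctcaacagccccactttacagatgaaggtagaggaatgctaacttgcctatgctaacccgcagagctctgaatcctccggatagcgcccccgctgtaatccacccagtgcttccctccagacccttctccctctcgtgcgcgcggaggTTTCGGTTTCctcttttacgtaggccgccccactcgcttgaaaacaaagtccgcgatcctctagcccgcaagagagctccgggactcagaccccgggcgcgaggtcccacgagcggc
TNIP1: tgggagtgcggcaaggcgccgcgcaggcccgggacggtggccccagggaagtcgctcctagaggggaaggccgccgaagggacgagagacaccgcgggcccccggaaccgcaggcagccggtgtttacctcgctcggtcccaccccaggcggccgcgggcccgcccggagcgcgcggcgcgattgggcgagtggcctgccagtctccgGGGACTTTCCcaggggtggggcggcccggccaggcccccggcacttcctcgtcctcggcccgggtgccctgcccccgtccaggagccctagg

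The interferon element core was found in the only RBCK1 window, in 1 of 2 RNF31 windows and in 2 of 3 RIPK1 windows. None of the windows of OTULIN, CYLD or TNFAIP3 held it, and 3.57% of all 35116 windows did. This core was looked for after these sequences had been seen. The NF-kB motif, held by 1.91% of all windows, was found in 1 of 2 windows of TNIP1, in the window of TNFAIP3 and in 1 of 3 of CYLD. None of the windows of RBCK1, RNF31, OTULIN or RIPK1 held this motif. The composite motif of the stress factors CHOP and ATF4 (TGATGNAA, in 3.62% of windows) was found in none of the windows of RBCK1 or of its neighbour TRIB3. The ETS motif CCGGAAGT, in 4.14% of windows, was found in the RBCK1 window, in none of those of the 5 other members with a window, and in both windows of DDIT3, a gene described further on. A match is a run of letters and was not tested as a binding site.

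RBCK1 was the subunit whose transcript differed between the groups. It stood at 75.7, 90.4 and 63.5 CPM in controls 1, 2 and 3, against 263, 266 and 271 CPM in those labelled si-CPSF3. All 3 of the latter were above all 3 controls, and they lay closer together (267 ± 4.05 CPM, SD, n = 3) than the controls did (76.5 ± 13.5). The fitted log2 fold change was 1.80 (SE 0.16), or 3.48-fold. In rank among all gene names by counts, RBCK1 moved from places 753, 610 and 937 in the controls to places 242, 227 and 223. The gene lies on chromosome 20 from 408299 to 432139, on the plus strand, and no other GENCODE gene overlaps it. With each library left out in turn the log2 fold change lay between 1.70 and 1.94.

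The catalytic subunit and the other accessory subunit showed no such difference. RNF31 stood at 14.2, 14.8 and 13.5 CPM in the controls and at 13.7, 12.1 and 16.8 CPM in the other libraries, and the groups overlapped. Its log2 fold change was 0.00 (SE 0.22). SHARPIN stood at 11.5, 8.13 and 11.4 CPM in the controls and at 9.67, 9.11 and 8.16 CPM in those labelled si-CPSF3, again with overlap and a log2 fold change of -0.20 (SE 0.26). These genes rested on 36 to 74 counts per library, against 244 to 1196 for RBCK1, and the standard errors leave room for changes of moderate size in either direction. RNF31 lies on chromosome 14 from 24146875 to 24160655 and shares stretches of sequence with PSME2 on the opposite strand and with AL136295.5, annotated as protein-coding, on its own strand, while SHARPIN on chromosome 8 is overlapped by MAF1 and WDR97 on the opposite strand. No source used here gives the strand setting of the counting, so reads of such partners cannot be told apart.

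**Figure D1:**
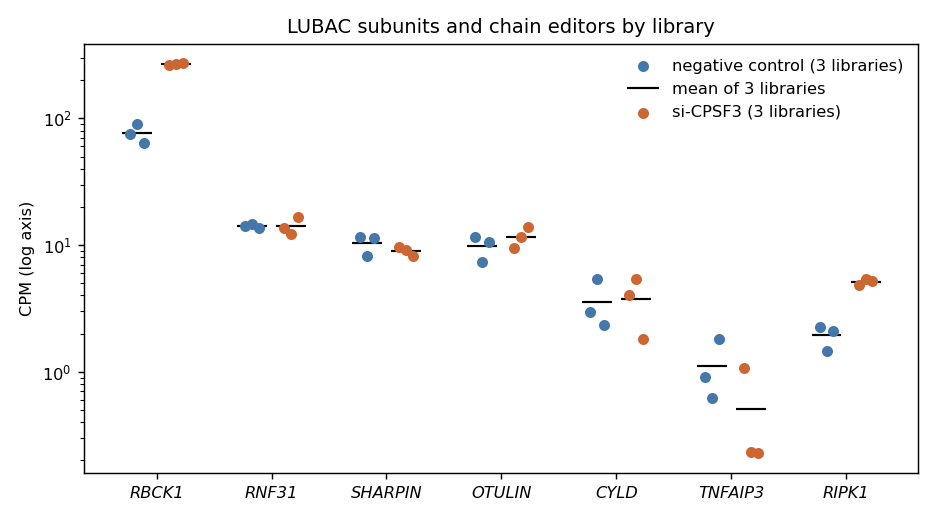
CPM (log axis) of the 7 genes in each of the 6 libraries, with bars at the mean of 3. RBCK1 and RIPK1 are the genes whose groups do not overlap, while the control and si-CPSF3 points of RNF31, SHARPIN, OTULIN, CYLD and TNFAIP3 intermingle.

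Among the enzymes that trim or edit ubiquitin chains, OTULIN, which cleaves linear linkages, stood at 11.5, 7.29 and 10.7 CPM in the controls and at 9.40, 11.7 and 13.8 CPM in those labelled si-CPSF3. The groups overlapped, and the log2 fold change was 0.25 (SE 0.26). CYLD, a tumour suppressor that cleaves linear and lysine-linked chains, gave 13, 26 and 9 counts in the controls and 15, 23 and 8 in the others, with a log2 fold change of 0.04 (SE 0.47). TNFAIP3, the ubiquitin-editing enzyme A20 that NF-kB itself induces, was near the detection limit: 4, 3 and 7 counts in the controls and 4, 1 and 1 in those labelled si-CPSF3. It did not pass the filter on low counts, which the other 6 genes passed.

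RIPK1, the kinase that carries linear chains at the TNF receptor and can signal for survival or death, was the other gene with separate groups. It gave 10, 7 and 8 counts in controls 1, 2 and 3, against 18, 23 and 23 counts in those labelled si-CPSF3. In CPM these were 1.93 ± 0.420 and 5.14 ± 0.277 (SD, n = 3), a log2 fold change of 1.41 (SE 0.41). Its SE was wider than that of RBCK1, and the gene had at most 23 counts in a library. RIPK1, like CYLD and TNFAIP3, is overlapped by an annotated antisense gene, whose reads cannot be told apart either. On the deposited FPKM values (fragments scaled to transcript length and library size) with a pseudocount of 1, a scale that compresses low genes, the difference of RIPK1 was 0.68. Of the 6 genes that passed the filter, 1 (RBCK1) was among the genes called at an adjusted p under 0.05, where 2.23% of all 11069 genes tested were called, 0.723% as higher and 1.51% as lower. Groups did not overlap for 2 of the 6, both higher, against 21.2% of all genes tested (9.82% higher). As the genes were selected on this contrast, nothing is read from these shares. In RNA from bulk culture, a change in the make-up of the cells and a change in RNA per cell cannot be told apart.

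Levels of different genes were compared per length, on the deposited FPKM values. The ratio of RBCK1 to RNF31 was 13.2, 21.6 and 10.02 in controls 1, 2 and 3, against 55.2, 53.3 and 49.2 in those labelled si-CPSF3. For RBCK1 to SHARPIN the ratios were 6.51, 14.4 and 6.23 in the controls and 30.5, 41.7 and 27.9 in the others. In each library the RBCK1 transcript was thus more abundant per length than either partner, and both ratios separated the groups. This separation follows from the RBCK1 values that chose the gene.

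The size of these ratios depended on the length used. The count divided by the FPKM of a gene, scaled by the library's median over 3180 genes, gives the length that the FPKM values imply. For RBCK1 this was 1030 to 1468 bases, where the principal GENCODE 29 transcript has 2774 and its 9 coding transcripts range from 593 to 2774. Only 2.99% of the 3180 genes had an implied length as short or shorter relative to the principal transcript. RNF31 came out at 2504 to 3849 bases for a transcript of 3627, and RIPK1 at 3307 to 4694 for one of 4160. When counts were divided by the principal transcript length instead, the ratio of RBCK1 to RNF31 was 6.13 to 7.99 in the controls and 21.1 to 28.7 in the other group, and that of RBCK1 to SHARPIN was 3.53 to 7.08 and 17.3 to 21.1. RNF31 stood on 2 rows of the table with identical counts but different FPKM values, 4.79 ± 0.144 and 5.25 ± 1.61 in the controls and 4.85 ± 1.07 and 4.49 ± 0.949 in those labelled si-CPSF3 (SD, n = 3). Which isoforms the reads came from was not tested.

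**Figure D2:**
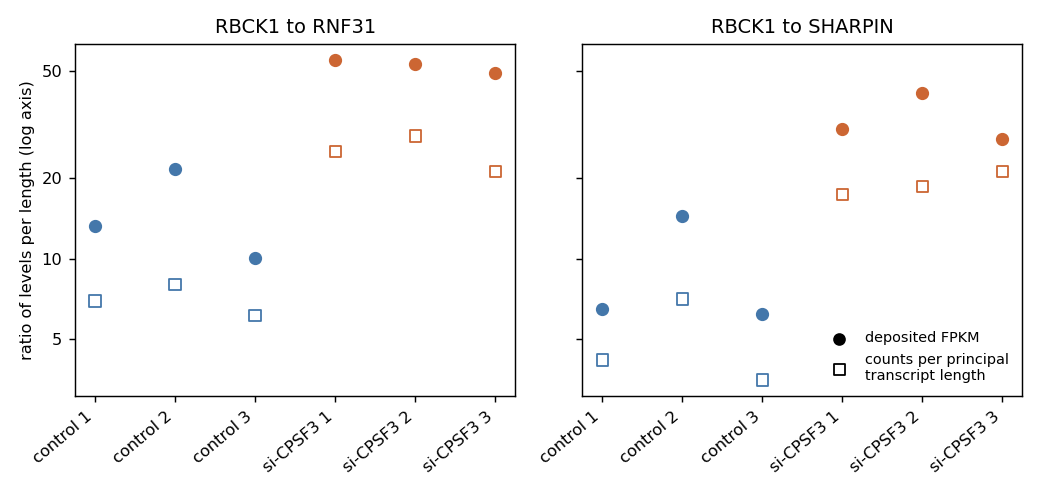
Ratio of RBCK1 to RNF31 (left) and to SHARPIN (right) per library on a log axis, from deposited FPKM (filled circles) and from counts per principal transcript length (open squares), controls in blue and si-CPSF3 in orange. On either scale RBCK1 exceeds its partners in each library, from 3.53 at the lowest to 55.2 at the highest.

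RBCK1 and RNF31 belong to the RING-between-RING (RBR) ligases, which pass ubiquitin through a cysteine of their own. Among the 14 genes of this family examined, RBCK1 had the highest FPKM in each library, 72.1 ± 31.0 in the controls and 254 ± 49.9 in those labelled si-CPSF3 (SD, n = 3). Next in the controls came RNF217 at 16.6 ± 1.95, RNF19A at 9.19, 10.5 and 10.4 in the 3 libraries, ARIH2 at 6.87 ± 1.83 and RNF216 at 6.18 ± 2.46 FPKM, with RNF31 at 4.79 ± 0.144. ARIH2 and RNF216 lie within each other's spread. RNF144B had 0 counts in all 6 libraries. Of the 12 RBR genes other than RBCK1 and RNF31, 11 were tested and 0 passed with edgeR or with DESeq2. With edgeR 0 had an unadjusted p under 0.05, and 2.23% of all genes tested were called. Groups did not overlap for 2 of the 11 (18.2%, against 21.2% of all genes), ARIH1 higher and RNF217 lower. The median log2 fold change of the 11 was -0.02, within a range of -0.38 to 0.77, beside a median of -0.01 over all genes tested. The 2 most abundant by CPM were RNF19A, at -0.35 (edgeR adjusted p = 0.399), and RNF217, at -0.38 (edgeR adjusted p = 0.360).

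Position on the chromosome played no part in choosing the genes, and the 5 nearest protein-coding genes on each side of RBCK1 were therefore tested. TRIB3, a stress-induced pseudokinase whose gene ends 10739 bases before RBCK1 starts and runs on the same strand, rose from 181, 198 and 227 CPM in control replicates 1, 2 and 3 to 433, 426 and 408 CPM (log2 fold change 1.06, SE 0.15, edgeR adjusted p = 0.00139). It was the only call among the 7 neighbours tested, where 0.723% of all genes were called higher, and its change was already known when the neighbours were looked up. On the other side TBC1D20, a RAB GTPase-activating protein 3340 bases away on the opposite strand, stood at 27.6 ± 5.14 and 33.3 ± 1.83 CPM (SD, n = 3; log2 fold change 0.27, edgeR adjusted p = 0.525). CSNK2A1, a catalytic subunit of casein kinase 2, was at 0.25 (edgeR adjusted p = 0.544).

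Farther out, the sulfiredoxin gene SRXN1, which repairs oxidised peroxiredoxins, was at 0.58 (edgeR adjusted p = 0.0691) and the transcription factor gene SOX12 at 0.46 (edgeR adjusted p = 0.159). Control and si-CPSF3 libraries did not overlap for either of them, nor for TRIB3, all of them higher. Of all genes tested, 21.2% did not overlap, 9.82% as higher. NRSN2 was at 0.05 (edgeR adjusted p = 0.938) and ZCCHC3 at 0.30 (edgeR adjusted p = 0.582). LOC101929937 and TCF15 were too low to be tested, and SCRT2 was not analysed here. The ratio of RBCK1 to TRIB3 counts, whose direction also follows from the values that chose RBCK1, was 0.418, 0.456 and 0.280 in controls 1, 2 and 3, against 0.608, 0.626 and 0.665 in those labelled si-CPSF3. Scaled by library totals, the median of all genes moved to -0.10 and TRIB3 passed again. On the FPKM scales TRIB3 kept its size but did not pass (1.02, SE 0.30, limma adjusted p = 0.246 on log2(FPKM + 1)).

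**Figure D3:**
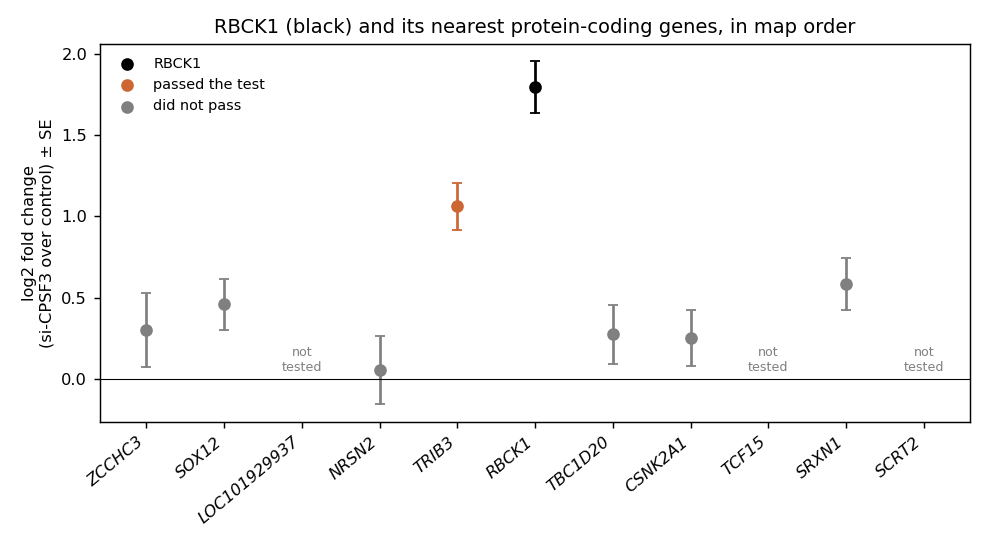
Log2 fold change with its standard error for RBCK1 (1.80) and the 5 nearest protein-coding genes on each side, in map order and not to scale along the chromosome. TRIB3, at 1.06, is the neighbour that passed the test, and 3 neighbours have no value.

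For the other members the nearest gene on each side was taken, 12 in all. Of these 6 were tested and 0 passed with edgeR, where 2.23% of all genes were called. CYC1 of the respiratory chain (log2 fold change -0.35, edgeR adjusted p = 0.253) and MAF1, a repressor of RNA polymerase III (0.43, edgeR adjusted p = 0.254), flank SHARPIN. Their unadjusted edgeR p were 0.0278 and 0.0283. Groups overlapped for MAF1 but not for CYC1, which was lower, where 21.2% of all genes did not overlap (11.4% lower). NQO2 (0.09, edgeR adjusted p = 0.855) and BPHL (0.08, edgeR adjusted p = 0.908) flank RIPK1, which itself was at 1.41. ANKH, which overlaps OTULIN on the opposite strand in RefSeq so that their reads cannot be told apart, was at 0.02 (edgeR adjusted p = 0.991) and PERP, beyond TNFAIP3, at -0.26 (edgeR adjusted p = 0.641).

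The rest of the pathway was read from 9 lists holding 94 genes besides the members, of which 74 were tested. TNFRSF10B rose and TNIP1, SOD2, CCL2 and PYGL fell, so that 1 gene was higher and 4 were lower, 6.76% of those tested, where the test called 2.23% of all genes. TNFRSF10B, SOD2 and CCL2 were already known as changed when the lists were drawn up. The median log2 fold change of the 74 was 0.06, beside -0.01 over all genes, and groups did not overlap for 20 of them (27.0%, against 21.2% of all genes). Without control replicate 2, or without any 1 of the 3 libraries labelled si-CPSF3, 3 genes passed instead of 5, and CCL2 and PYGL passed in 2 and 1 of the 6 such fits.

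TNIP1, the adaptor ABIN-1 that binds linear chains and works with A20 to damp NF-kB, was the pathway gene nearest to the complex to pass. Counts of TNIP1 were 366, 368 and 282 in controls 1, 2 and 3, against 161, 126 and 185 in those labelled si-CPSF3. The level fell from 77.6 ± 4.72 to 38.2 ± 7.63 CPM (SD, n = 3; log2 fold change -1.02, SE 0.17, edgeR adjusted p = 0.00481), and the groups did not overlap. Each of the 6 fits with a library left out called it. On log2(FPKM + 1) the value was -1.05 and did not pass (limma adjusted p = 0.167). Of the 11 tested chain readers and kinases of its list, TNIP1 was the single call, where 2.23% of all genes were called, 1.51% as lower. Groups did not overlap for 4 of the 11 (2 higher and 2 lower), against 21.2% of all genes tested. With edgeR 3 had an unadjusted p under 0.05, and the median log2 fold change of the list was 0.08.

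At the receptor, 0 of 12 adaptor genes passed with edgeR or DESeq2, and 1 had an unadjusted p under 0.05. Over all 11069 genes tested edgeR called 2.23%, and 1702 had an unadjusted p under 0.05. Nothing is thus read from a count of 0 in lists as short as these. The most abundant were XIAP, an inhibitor of caspases and a ligase (log2 fold change 0.07, edgeR adjusted p = 0.867), and the kinase gene IRAK1 (0.04, edgeR adjusted p = 0.922). Of the 6 tested partners of CYLD, OTULIN and A20, 0 passed with either tool and 0 had an unadjusted p under 0.05, with VCP, an ATPase that extracts ubiquitinated proteins, at 0.01 (edgeR adjusted p = 0.988) and TAX1BP1, an A20-binding adaptor, at 0.26 (edgeR adjusted p = 0.584). The 11 ubiquitin genes and conjugating enzymes gave 0 calls with either tool and 2 unadjusted p under 0.05. RPS27A, a ubiquitin-ribosomal fusion gene at 0.08 (edgeR adjusted p = 0.891), has many near-identical pseudogene copies, so its counts are uncertain.

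In the death arm, TNFRSF10B, the TRAIL receptor DR5, rose from 17.2, 17.5 and 15.4 CPM in the controls to 56.7, 63.1 and 54.2 CPM (log2 fold change 1.79, SE 0.17, edgeR adjusted p = 4.41e-05). It was the single call among 5 tested genes, where 2.23% of all genes were called, 0.723% as higher. TNFRSF10B was known as changed when the list was drawn up, so its call is a description. Groups did not overlap for 4 of the 5 (3 higher and 1 lower), against 21.2% of all genes tested, and 3 had an unadjusted p under 0.05. On the same side of 0 as TNFRSF10B were CASP8, at 0.71 (edgeR adjusted p = 0.412), and TNFRSF10A, at 0.31 (edgeR adjusted p = 0.503). On the other side were the adaptor gene FADD, at -0.84 (edgeR adjusted p = 0.188), and CFLAR, an inhibitor of caspase activation, at -0.49 (edgeR adjusted p = 0.302). The median of the 5 was 0.31. The NF-kB subunits and inhibitors gave 0 calls of 8 with edgeR or DESeq2 and 2 unadjusted p under 0.05. Their median was -0.27, with RELB at -0.35 (edgeR adjusted p = 0.339) and RELA at -0.02 (edgeR adjusted p = 0.968). Among 5 tested NF-kB target genes, 2 were called, both lower, where 1.51% of all genes were called lower. Both were known as changed when the list was drawn up. SOD2, the mitochondrial superoxide dismutase, fell from 19.5 ± 1.97 to 6.78 ± 2.43 CPM (SD, n = 3; log2 fold change -1.51, edgeR adjusted p = 0.00690). The chemokine CCL2 fell from 6.69 ± 4.86 to 1.13 ± 0.589 CPM (log2 fold change -2.55, edgeR adjusted p = 0.0319), with control replicate 2 holding 59 of its counts and controls 1 and 3 holding 16 each. Without control replicate 2 the log2 fold change of CCL2 was -1.75 (edgeR adjusted p = 0.190). The other targets tested had overlapping groups: CXCL1 at 0.50 (edgeR adjusted p = 0.745), BIRC3 at -0.18 (edgeR adjusted p = 0.876) and IER3 at -0.29 (edgeR adjusted p = 0.445). NFKBIZ, too low to test, had 5, 2 and 4 counts in controls 1, 2 and 3, against 7, 11 and 8 in those labelled si-CPSF3. CXCL8, IL6 and ICAM1, also targets of NF-kB, had 0 counts in all 6 libraries.

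The glycogen genes were read because RBCK1 deficiency disturbs glycogen in humans. PYGL, the liver-type glycogen phosphorylase, fell from 42.5 ± 8.71 to 23.9 ± 2.60 CPM (SD, n = 3; log2 fold change -0.84, SE 0.19, edgeR adjusted p = 0.0298). It was the single call among 6 tested genes of its list, where 2.23% of all genes were called. The median of the list was -0.03, with 3 above 0 and 3 below. Those below include IREB2, the gene of IRP2, at -0.14 (edgeR adjusted p = 0.870), which is not a glycogen gene.

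**Figure D4:**
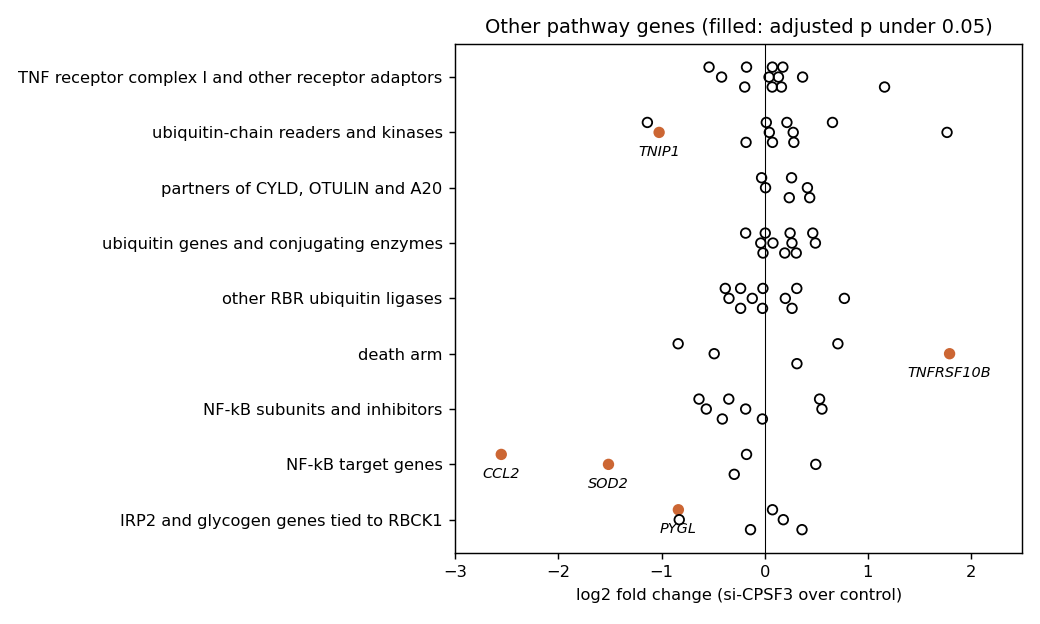
Log2 fold change of each tested pathway gene outside the 7 members, by list, with filled points for an adjusted p under 0.05. TNFRSF10B at 1.79 is the filled point to the right of 0, and CCL2 (-2.55), SOD2 (-1.51), TNIP1 (-1.02) and PYGL (-0.84) are those to the left.

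The genes whose pattern over the 6 libraries was most like that of RBCK1 were sought among all genes tested, by the root mean square difference of log2 CPM centred on each gene's mean. Nearest was TNFRSF10B, at a difference of 0.12 log2 units. Then came the neuronal kinesin gene KIF5A (0.21), the zinc finger gene ZNF592 (0.25), DDIT3, which encodes the stress-induced transcription factor CHOP (0.28), and ZNF473 (0.28), whose protein takes part in histone pre-mRNA processing. DDIT3 stood at 82.9, 81.1 and 78.1 CPM in the controls and at 203, 206 and 199 CPM in those labelled si-CPSF3. KIF5A, ZNF592 and ZNF473 had at most 57 counts in a library. These 5 were chosen for a contrast like that of RBCK1, so no test is given for them here. The test of TNFRSF10B printed above was given for it as a gene of the death arm list.

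**Figure D5:**
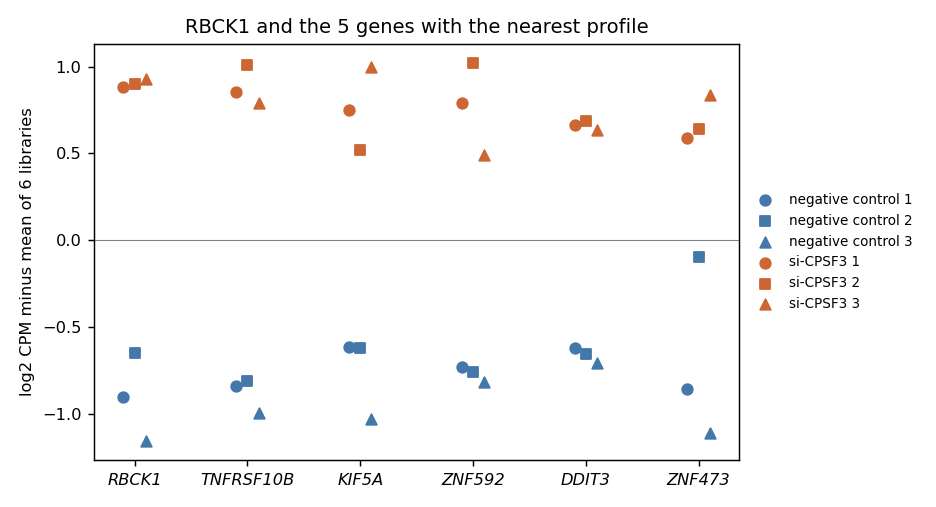
Log2 CPM minus the mean of the 6 libraries for RBCK1 and the 5 genes with the nearest profile, 1 point per library. For each gene the 3 si-CPSF3 points (orange) lie above 0 and the 3 control points (blue) below it.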

How the data were processed

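Per the labels' protocols, libraries were made from total RNA with a SMARTer mRNA kit, and the submitters' processing notes name hg38 as the build. No source used here gives the aligner, counting tool, strand setting or annotation. The authors deposited raw counts per gene, which are whole numbers and not normalised, and FPKM values scaled by the authors to length and library size. The tables held 25479 rows for 23382 names.

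Counts were tested with edgeR 4.0.16 in R 4.3.3 by its quasi-likelihood F test, using TMM factors, filterByExpr at its defaults, group as the only term, two-sided, and Benjamini-Hochberg adjustment over 11069 genes at 0.05. SE is the absolute log2 fold change over the root of F. CPM are counts per TMM-scaled library size. Steps were tested on simulated data. The alternatives used DESeq2 1.42.0, limma 3.58.1 on log2(FPKM + 1) and log2(FPKM + 0.1), other factors and filters, a replicate block, summed rows and each library left out.

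The members and lists were chosen with earlier results of these data known. Named were the members, CPSF3, in each list the called genes averaging 1 CPM or more (4 at most, by size of change) or else the 2 most abundant, the neighbours and the 5 nearest profiles. Genes at 0 or too low to test were added after their values were seen. Positions and promoters came from RefSeq (GRCh38.p14), with promoters for 6 of the 7 members, and transcript lengths from GENCODE 29. Some genes that this rule names are not reported here.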

Additional observations from a re-analysis of the deposited data

How the results depend on the processing

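RBCK1 kept its direction in the 6 fits with a library left out and the 10 other alternatives, with log2 fold changes of 1.69 to 1.94. None of the called genes named here changed sign, and the signs of the other called genes were not followed. Against 247 genes called, 547 were called with no filter on low counts, 30 on log2(FPKM + 1), 18 on log2(FPKM + 0.1) and 0 on log2(FPKM + 1) with no filter by limma, where 769 had an unadjusted p under 0.05. Leaving out 1 library gave 85 to 199, with fewer samples fitted. Against 5 pathway genes, the same FPKM settings gave 1, 0 and 0 (10 unadjusted p under 0.05 on log2(FPKM + 0.1) and 11 with no filter), and leaving out 1 library gave 3 to 5. Library totals made 18.9% of calls higher, against 32.4%. The cause of these shifts was not tested.

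The replicate number as a block gave 147 genes and 3 pathway genes, with CCL2 (adjusted p = 0.0949) and PYGL (0.0682) lost. Deviations of same-numbered libraries correlated at 0.05, 0.08 and -0.05, and 3 of 6 libraries correlated best with their own number. With 3 libraries per group this cannot decide whether same-numbered libraries were paired, which the labels do not state. Counts of at most 26 per library limit RIPK1, CYLD and TNFAIP3.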

Other observations

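Of the 20 pathway genes outside the members whose groups did not overlap (27.0% of those tested, against 21.2% of all genes), 15 did not pass the test, 8 higher and 7 lower in the libraries labelled si-CPSF3. The 8 with an unadjusted p under 0.05 are named here, by a rule chosen after their values were seen. On the higher side, TANK, an adaptor of the kinase TBK1, stood at 1.16 ± 0.287 and 3.98 ± 0.909 CPM (SD, n = 3 in control and si-CPSF3 libraries; log2 fold change 1.77, edgeR adjusted p = 0.0727). BCL10, which links antigen receptors to LUBAC, stood at 2.87 ± 0.689 and 6.39 ± 1.77 CPM (1.16, edgeR adjusted p = 0.133). UBE2V1, a partner of a ubiquitin-conjugating enzyme, was at 0.49 (edgeR adjusted p = 0.192) and PYGB, the brain-type glycogen phosphorylase, at 0.36 (edgeR adjusted p = 0.253).

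On the lower side, CHUK, the kinase IKK alpha, stood at 5.16 ± 1.54 and 2.31 ± 0.713 CPM (-1.14, edgeR adjusted p = 0.204) and NFKBIA, the inhibitor of NF-kB that NF-kB induces, at 17.9 ± 1.42 and 11.5 ± 0.909 CPM (-0.64, edgeR adjusted p = 0.145). FADD was at -0.84, as given above. The muscle-type glycogen synthase gene GYS1 stood at 13.6 ± 0.227 and 7.66 ± 1.57 CPM (-0.83, edgeR adjusted p = 0.0978), so the glycogen genes named lay on both sides of 0.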
